A study of Homo sapiens with 4 samples.

Results

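HOX, SOX and GATA genes encode transcription factors of embryonic patterning and cell fate. Here they were followed through the transcriptomes of 4 human hepatoma cultures measured by RNA sequencing. Members were all genes of the 4 count files whose symbol began with HOXA, HOXB, HOXC, HOXD, SOX or GATA and a digit, with SOX9 left out. This gave 50 of 16370 genes, namely 34 HOX genes (12 HOXA, 6 HOXB, 8 HOXC and 8 HOXD), 12 SOX genes and 4 GATA genes. Hep3B and Huh7 are established human hepatoma cell lines from the American Type Culture Collection and formed the hepatocellular carcinoma group (HCC). The hepatic cancer stem cell group (HCSC) held Hep3B-C and Huh7-C, which the study cultured from these lines as stem-like cells. Neither the labels nor the methods named any genetic change or drug treatment of these cells. Hep3B and Hep3B-C are called the Hep3B lineage below, and Huh7 and Huh7-C the Huh7 lineage. Each cell line was 1 library, so no level had a replicate. Intervals are exact 95% intervals of the counts and cover counting error only.

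In vertebrates the HOX genes lie in the clusters HOXA, HOXB, HOXC and HOXD, on human chromosomes 7, 17, 12 and 2. The order of genes along a cluster follows the order of their expression along the body axis. Paralog group 1, at the 3' end of a cluster, is used towards the head, and group 13, at the 5' end, towards the tail and in the limbs and genital region. SOX factors bind DNA through a box shared with the sex-determining factor SRY. They act in stem cells (SOX2), progenitors (SOX4 and SOX12 of the SoxC group), cartilage and other mesenchyme (SOX5, SOX6 and SOX13 of the SoxD group) and blood vessels (SOX7 and SOX18 of the SoxF group). GATA factors bind the motif from which they are named through zinc fingers. GATA4 and GATA6 act in endoderm, heart and early liver, and GATA2 and GATA3 in blood and other lineages.

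Of the 50 members, 29 were matched to the RefSeq promoter table (GRCh38.p14). The window searched was the 250 bases before the annotated start of transcription. The CCAAT box, a common promoter element bound by the factor NF-Y, was searched as CCAAT or, on the other strand, ATTGG. At least 1 match was found in 23 of the 29 members (79.3%), against 37.0% of 27305 genes in the table. Among genes with 1 window each, it was found in 18 of 24 members (75%), against 33.4% of 22114 genes. The members' windows held a median of 20 CpG dinucleotides, against 11 over the table, and a match describes the letters only. Windows are shown for the genes on which the results turn, 5' to 3' on the gene's strand, with matches in capitals.
HOXA7, a HOXA gene found in the Hep3B lineage, chr7:27156676-27156925, minus strand: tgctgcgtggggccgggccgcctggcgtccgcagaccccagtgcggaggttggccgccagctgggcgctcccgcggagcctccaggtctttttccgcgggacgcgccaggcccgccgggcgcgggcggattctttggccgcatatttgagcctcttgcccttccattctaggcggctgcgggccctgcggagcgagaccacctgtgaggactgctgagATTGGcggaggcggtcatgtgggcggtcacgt
HOXA13, a gene of the same cluster found in the Huh7 lineage and higher in Huh7-C, chr7:27200092-27200341, minus strand: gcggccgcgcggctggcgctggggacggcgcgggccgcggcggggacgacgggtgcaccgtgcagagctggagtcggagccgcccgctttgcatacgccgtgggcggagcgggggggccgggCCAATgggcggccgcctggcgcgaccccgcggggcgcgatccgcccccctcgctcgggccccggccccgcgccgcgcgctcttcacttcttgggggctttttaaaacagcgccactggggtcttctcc
HOXD13, found in the Huh7 lineage and lower in Huh7-C, chr2:176092471-176092720, plus strand: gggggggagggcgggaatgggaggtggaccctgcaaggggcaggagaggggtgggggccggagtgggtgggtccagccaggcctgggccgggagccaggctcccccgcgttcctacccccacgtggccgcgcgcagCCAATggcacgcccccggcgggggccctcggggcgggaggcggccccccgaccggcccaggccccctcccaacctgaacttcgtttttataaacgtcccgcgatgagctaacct
SOX4, the most abundant member in the Hep3B lineage, chr6:21593501-21593750, plus strand: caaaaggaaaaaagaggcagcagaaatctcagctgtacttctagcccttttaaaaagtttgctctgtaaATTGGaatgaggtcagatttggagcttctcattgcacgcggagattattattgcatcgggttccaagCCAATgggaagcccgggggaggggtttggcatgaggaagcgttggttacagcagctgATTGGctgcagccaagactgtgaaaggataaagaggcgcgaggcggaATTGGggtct
SOX12, higher in Hep3B-C than in Hep3B, chr20:325302-325551, plus strand: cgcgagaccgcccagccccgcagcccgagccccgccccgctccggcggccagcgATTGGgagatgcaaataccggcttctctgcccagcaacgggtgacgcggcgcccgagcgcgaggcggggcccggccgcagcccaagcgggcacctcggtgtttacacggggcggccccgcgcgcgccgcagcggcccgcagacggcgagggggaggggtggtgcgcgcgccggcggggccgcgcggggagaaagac
The SOX4 window held 4 matches and 8 CpG dinucleotides, and the SOX12 window 1 match and 42. HOXA7, HOXA13 and HOXD13 each had 1 match, with 28, 40 and 21 CpG dinucleotides.

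The libraries held 2896418 and 4641927 gene counts in Hep3B and Hep3B-C, and 4537510 and 4333808 in Huh7 and Huh7-C. Levels are given as counts scaled to the total gene count of the library (CPM), and as RPKM (CPM per kilobase of gene length) where genes are compared with each other. A value of 0 counts allowed a level of up to 3 counts, which was 1.04 and 0.646 CPM in Hep3B and Hep3B-C, and 0.661 and 0.692 in Huh7 and Huh7-C. Fold bounds given as "at least" set 0 counts at 3 and leave out the counting error of the other side. They are therefore not the lower ends of exact intervals. The hepatic label was checked with 8 hepatocyte markers (ALB, SERPINA1, APOA1, APOB, TTR, TF, FGB and HNF4A), each of which had 10 or more counts in every library. Their levels differed between lineages. ALB stood at 19541 and 18469 CPM in Hep3B and Hep3B-C, but 106 and 267 in Huh7 and Huh7-C. TTR had only 13 counts in Huh7 and 13 in Huh7-C. FGB went the other way, at 92.5 and 23.5 CPM in Hep3B and Hep3B-C against 1436 and 756. AFP, the fetal albumin-like protein of many hepatomas, had 16175 counts in Hep3B and 4201 in Hep3B-C, but 26 in Huh7 and 12 in Huh7-C. GPC3, the other fetal liver or hepatoma marker, had 2883 and 2719 counts in Hep3B and Hep3B-C, against 111 and 109 in Huh7 and Huh7-C. Of 6 fibroblast or stellate cell markers, 5 were listed in the files, and their summed level was 4.83 and 1.08 CPM in Hep3B and Hep3B-C, and 4.19 and 15.2 in Huh7 and Huh7-C. DCN was not listed and was taken as 0, and the Huh7-C sum was mostly COL3A1 (58 counts). Of 4 endothelial markers, 3 were listed, with sums of 3.11, 2.80, 3.97 and 21.5 CPM in the same order. The Huh7-C value was PECAM1 alone (93 counts), with VWF and KDR at 0 and CDH5 not listed. Of 4 blood markers, CD14 alone was listed and had at most 6 counts, while PTPRC, CD3E and HBB were not listed and were taken as 0. The part of other cell types in the members' levels was not tested. In bulk RNA, fewer cells of a type and less RNA per cell cannot be told apart.

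Members together took 884 and 654 CPM in Hep3B and Hep3B-C, and 421 and 384 in Huh7 and Huh7-C, although with TMM, a scaling on the bulk of genes, Hep3B and Hep3B-C stood at 733 and 758 CPM. The 2 lineages filled this sum differently. SOX genes held 683 and 564 CPM in Hep3B and Hep3B-C, against 94.5 and 104 in Huh7 and Huh7-C. HOX genes held 83.6 and 19.0 CPM in Hep3B and Hep3B-C, against 245 and 218 in Huh7 and Huh7-C. The GATA sum was 117, 70.4, 81.5 and 61.8 CPM in the order Hep3B, Hep3B-C, Huh7 and Huh7-C, so its lineages overlapped. SOX4 gave most of the SOX sum of the Hep3B lineage, since without it the SOX sum was 177 and 268 CPM in Hep3B and Hep3B-C, and 87.1 and 93.0 in Huh7 and Huh7-C. In all, 31 members had 10 or more counts in at least 1 library, and those reported are named below. The other 19 stayed under 10 counts in every library. Members with 10 or more counts numbered 16 and 12 in Hep3B and Hep3B-C, and 25 and 24 in Huh7 and Huh7-C.

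**Figure D1:**
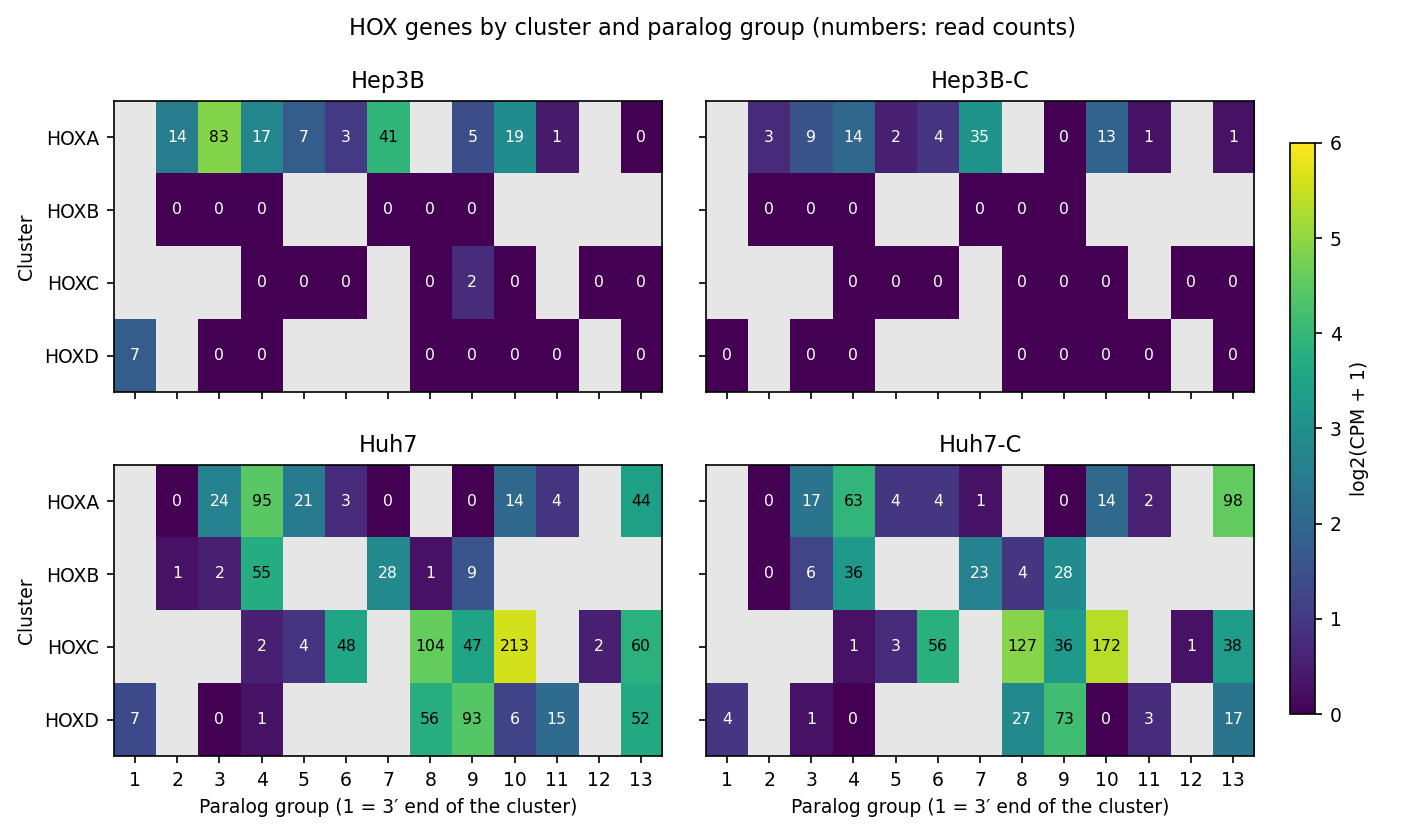
Read counts of the HOX genes in each library, set out by cluster (rows) and paralog group (columns), with colour for log2(CPM + 1) and light grey where a cluster has no such gene or none is shown. In Hep3B and Hep3B-C nearly all counts lie in the HOXA row, while in Huh7 and Huh7-C the 4 rows are filled, with the highest count at HOXC10 (213 and 172).

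The first comparison was between lineages. HOX transcripts of the Hep3B lineage came almost wholly from the HOXA cluster. HOXA held 233 of 242 HOX counts in Hep3B and all 88 in Hep3B-C. The HOXB cluster had 0 counts in both libraries, HOXC had 2 and 0 counts, and HOXD had 7 and 0. Genes at 0 in both libraries of a pair were not listed for that pair and were taken as 0. Of the members, 23 were listed in the Huh7 pair only and 4 in the Hep3B pair only. In the Huh7 lineage all clusters had counts. There the HOXA sum was 67.7 CPM in Huh7 and 66.5 in Huh7-C, the HOXB sum 21.2 and 22.4, the HOXC sum 106 and 100, and the HOXD sum 50.7 and 28.8. HOX genes with 10 or more counts numbered 6 and 3 in Hep3B and Hep3B-C, and 17 and 16 in Huh7 and Huh7-C.

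HOX genes were also grouped by position in the cluster, a grouping chosen after the values had been seen, given without a test and not corrected for gene length. Posterior genes (groups 9 to 13, 13 genes listed) held 50.3% of HOX counts in Huh7 (exact binomial interval 47.3% to 53.3%) and 51.2% in Huh7-C (47.9% to 54.4%). In Hep3B they held 11.2% (7.48% to 15.8%) and in Hep3B-C 17.0% (9.87% to 26.6%). Anterior genes (groups 1 to 3, 7 genes listed) held 60.7% in Hep3B (54.3% to 66.9%), 20.5% in Hep3B-C (12.6% to 30.4%), 12.1% in Huh7 (10.2% to 14.1%) and 11.8% in Huh7-C (9.79% to 14.0%). The Huh7 libraries had nearly the same make-up, whereas the anterior share of Hep3B-C lay below that of Hep3B.

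Genes were tested between lineages with edgeR's quasi-likelihood test over all 4 libraries, with the HCSC or HCC state as a term, which left 1 residual degree of freedom. The libraries of a lineage are a parental line and the culture grown from it, not independent replicates. The edgeR p-values therefore do not measure the spread between independent cultures of a lineage. Of 11691 genes that passed the edgeR filter on low counts, 26 were members. A total of 11 members were called higher in the Huh7 lineage, where the share over all genes was 3.65%, and 3 were called higher in the Hep3B lineage, where it was 4.82%. All 11 were HOX genes (HOXA13, HOXB4, HOXB7, HOXC6, HOXC8, HOXC9, HOXC10, HOXC13, HOXD8, HOXD9 and HOXD13). The 3 were HOXA7, SOX4 and SOX6. A gene with no counts in a lineage passes the filter through the other lineage alone. These counts over the tested members, and the adjusted p-values given below for such genes, are therefore a description. Without Huh7, 5 and 0 members were called, and the calls over all genes also went from 427 and 564 to 126 and 167. Without Huh7-C, 8 and 0 members and 131 and 151 of all genes were called. Without Hep3B or Hep3B-C, 5 members were called higher in the Hep3B lineage, with 984 and 1956 calls in that direction over all genes.

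By a simpler order, the CPM values of both libraries of a lineage were asked to lie above both of the other. Among the 31 members with 10 or more counts, 15 were higher in the Huh7 lineage without overlap, and all were HOX genes. Over all 12770 genes with 10 or more counts this share was 24.9%. The reverse order was seen for 7 members (HOXA2, HOXA7, SOX4, SOX5, SOX6, SOX13 and SOX18), against 22.8% over all genes. The remaining 9 overlapped, among them the 4 GATA genes. Some of these orders were not resolved at this depth. HOXA2 in Hep3B-C (0.646 CPM) lay under the level that 0 counts allow in Huh7 and Huh7-C, and HOXD11 in Huh7-C (0.692 CPM) under the level that they allow in Hep3B. Intervals of the nearest libraries overlapped for SOX13, at 39.5 to 52.0 CPM in Hep3B-C and 35.9 to 48.3 in Huh7-C. They also overlapped for SOX18, at 2.14 to 7.24 CPM in Hep3B and 1.43 to 4.84 in Huh7-C. For HOXB9 the interval in Huh7 was 0.907 to 3.77 CPM, and that of 0 counts in Hep3B reached 1.27. Of the 15, 11 HOX genes stood at 0 counts in both libraries of the Hep3B lineage with 10 or more in Huh7 or Huh7-C, while HOXA2 and SOX2 stood at 0 in both libraries of the Huh7 lineage with 10 or more counts in Hep3B or Hep3B-C.

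**Figure D2:**
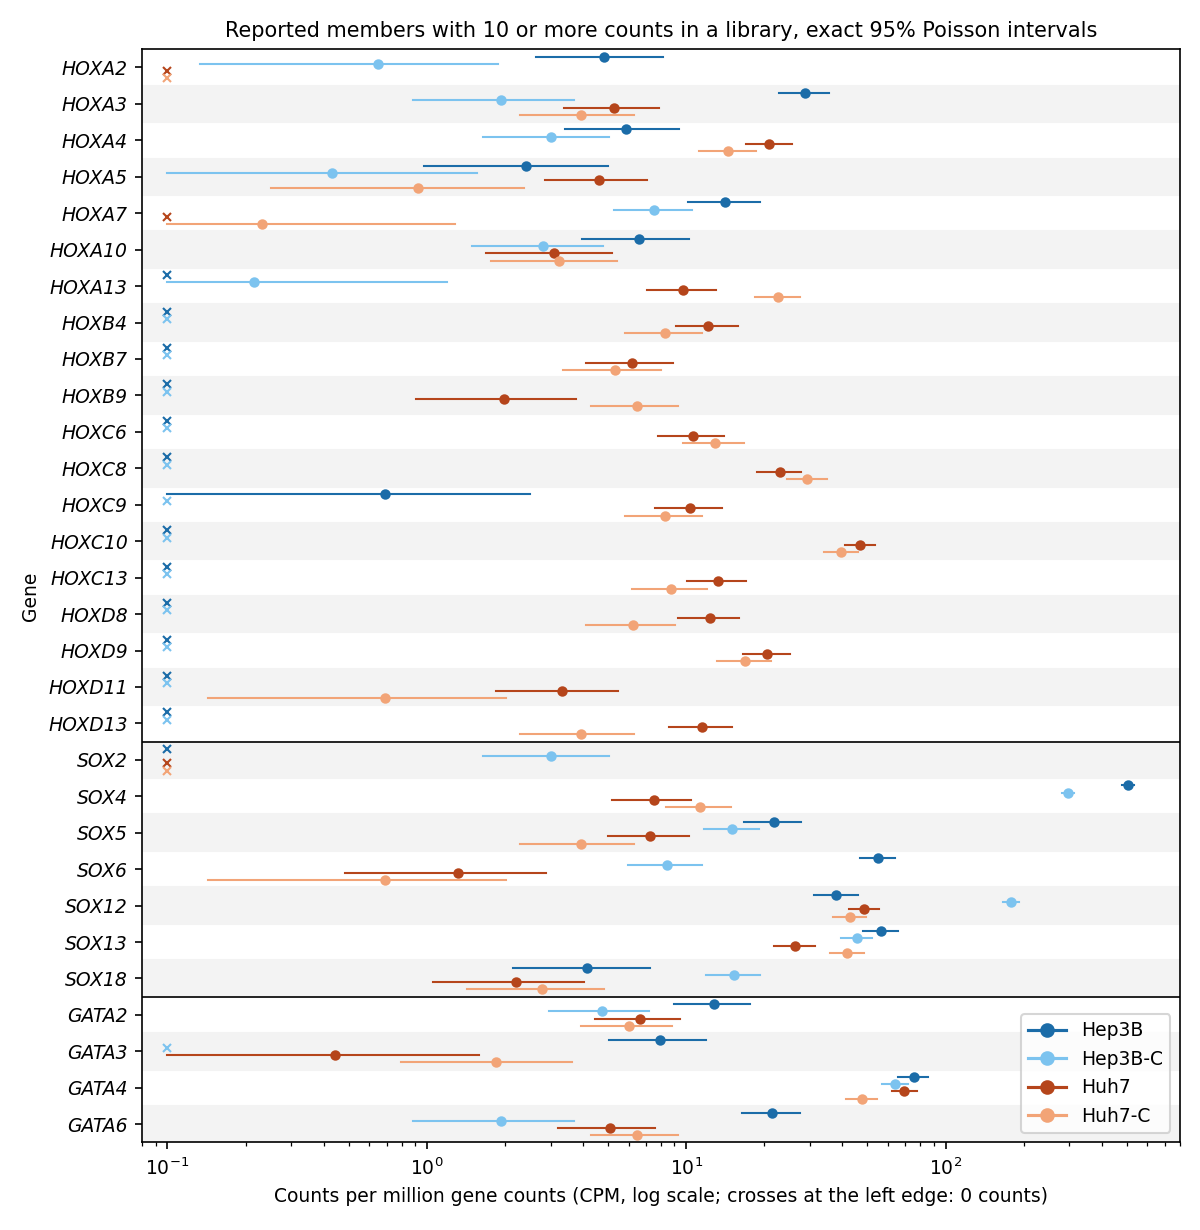
Levels of the reported members with 10 or more counts in at least 1 library, as CPM on a log axis with exact 95% Poisson intervals (cut at 0.1 CPM), and crosses for 0 counts. HOXB, HOXC and HOXD genes carry crosses in Hep3B and Hep3B-C apart from HOXC9 (2 counts in Hep3B), SOX4 stands at 505 and 297 CPM in the Hep3B lineage against 7.49 and 11.3, and GATA4 lies between 47.5 and 75.3 CPM in all libraries.

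In the HOXC cluster, HOXC10 had the highest level per length. It had 0 counts in Hep3B and Hep3B-C, against 213 in Huh7 and 172 in Huh7-C, or 46.9 and 39.7 CPM. Relative to 3 counts over the 2 libraries of the Hep3B lineage, it was at least 109-fold higher in the Huh7 lineage (edgeR adjusted p = 4.4e-08). HOXC8, a thoracic gene, had 0 and 0 counts against 104 and 127, and was at least 65.4-fold higher (adjusted p = 5.99e-07). HOXC6 had 0 and 0 against 48 and 56, at least 29.5-fold, and HOXC13, the hair and nail gene of the group at the 5' end, 0 and 0 against 60 and 38, at least 27.8-fold. Only HOXC9 of these had counts in the Hep3B lineage. Its counts were 2 in Hep3B and 0 in Hep3B-C, against 47 in Huh7 and 36 in Huh7-C, a ratio of 35.3 with an interval of 9.46 to 296 (adjusted p = 0.00225). HOXC4, HOXC5 and HOXC12 had between 1 and 4 counts in the Huh7 lineage. HOXC4, HOXC5 and HOXC6 are known to share a leader exon, so reads between them may have been assigned to any of the 3.

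The HOXD genes with 10 or more counts were HOXD8, HOXD9, HOXD11 and HOXD13. HOXD10, which lies between HOXD9 and HOXD11, had 6 and 0 counts in Huh7 and Huh7-C and none in the Hep3B lineage. HOXD9 had 0 and 0 counts in Hep3B and Hep3B-C, against 93 in Huh7 and 73 in Huh7-C, and was at least 47.0-fold higher in the Huh7 lineage (edgeR adjusted p = 3.3e-06). HOXD8 had 56 and 27 counts in Huh7 and Huh7-C, and HOXD13, a gene of digit and genital development, 52 and 17, both with 0 in the Hep3B lineage. Their lower bounds were 23.5-fold and 19.5-fold (adjusted p = 0.000161 and 0.000507). HOXD11, which acts in the forearm and kidney, had 15 and 3 counts against 0 and 0, at least 5.10-fold, but did not pass the filter of the test. The 3' genes were near 0, as HOXD1 had 7 and 0 counts in Hep3B and Hep3B-C and 7 and 4 in Huh7 and Huh7-C, and HOXD3 and HOXD4 had at most 1 count in any library.

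HOXB4, used to expand blood progenitors, had 55 and 36 counts in Huh7 and Huh7-C and 0 in Hep3B and Hep3B-C, a bound of 25.8-fold (edgeR adjusted p = 8.67e-05). HOXB7 had 28 and 23 counts against 0 and 0, at least 14.4-fold (adjusted p = 0.00122). HOXB9 had 9 and 28 counts against 0 and 0, at least 10.5-fold, and was not tested in this fit. HOXB2, HOXB3 and HOXB8 had at most 6 counts.

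Within HOXA, HOXA13 was at or near 0 in the Hep3B lineage and HOXA2 and HOXA7 in the Huh7 lineage, while HOXA3, HOXA4 and HOXA10 had counts in every library. HOXA13, of the 5' end, had 0 counts in Hep3B and 1 in Hep3B-C, against 44 in Huh7 and 98 in Huh7-C. The ratio of the lineages was 121, with an interval of 21.3 to 4799 (edgeR adjusted p = 5.86e-05). HOXA7, in the middle of the cluster, showed the opposite order with 41 and 35 counts in Hep3B and Hep3B-C, and 0 and 1 in Huh7 and Huh7-C. It was 89.4-fold higher in the Hep3B lineage (15.6 to 3579, adjusted p = 0.000245). HOXA2, a hindbrain gene, had 14 and 3 counts in Hep3B and Hep3B-C and 0 in Huh7 and Huh7-C, at least 6.67-fold higher in the Hep3B lineage. HOXA4 had 17, 14, 95 and 63 counts in Hep3B, Hep3B-C, Huh7 and Huh7-C. It was higher in the Huh7 lineage without overlap, by a ratio of 4.33 (2.93 to 6.59), and did not pass the test (adjusted p = 0.217). HOXA3 (83, 9, 24 and 17 counts), HOXA5 (7, 2, 21 and 4) and HOXA10 (19, 13, 14 and 14) overlapped. HOXA6, HOXA9, HOXA11 and the antisense transcript HOXA11-AS1 had at most 5 counts. Strand was not stated for these libraries, so reads of HOX genes and of their antisense or read-through transcripts cannot be told apart.

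Among SOX genes, SOX4 stood above all members in the Hep3B lineage. Its counts were 1464 in Hep3B and 1377 in Hep3B-C, against 34 in Huh7 and 49 in Huh7-C, or 505, 297, 7.49 and 11.3 CPM. The Hep3B lineage was 40.3-fold higher (32.4 to 50.7, edgeR adjusted p = 1.51e-05). At 104 and 60.8 RPKM it was the first of the members per length in Hep3B and Hep3B-C. Of the SoxD group, SOX6 had 159 counts in Hep3B and 39 in Hep3B-C, against 6 and 3 in Huh7 and Huh7-C, 25.9-fold higher in the Hep3B lineage (13.4 to 57.5, adjusted p = 0.000755). SOX5 had 63, 70, 33 and 17 counts in Hep3B, Hep3B-C, Huh7 and Huh7-C (ratio of the Hep3B to the Huh7 lineage 3.13, 2.25 to 4.42, adjusted p = 0.325). SOX13 had 163, 211, 119 and 181 counts (ratio 1.47, 1.26 to 1.71, adjusted p = 0.852), so neither passed the test. SOX18, a factor of blood and lymphatic vessels, had 12, 71, 10 and 12 counts. Its lineages did not overlap in CPM, but the intervals of 4.14 CPM in Hep3B (2.14 to 7.24) and 2.77 in Huh7-C (1.43 to 4.84) did. SOX12, the other SoxC gene in the files, had 110, 829, 220 and 186 counts and overlapped. SOX2 had 14 counts in Hep3B-C and 0 in the other 3 libraries. SOX7, SOX8, SOX14, SOX15 and SOX21 had at most 7 counts.

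**Figure D3:**
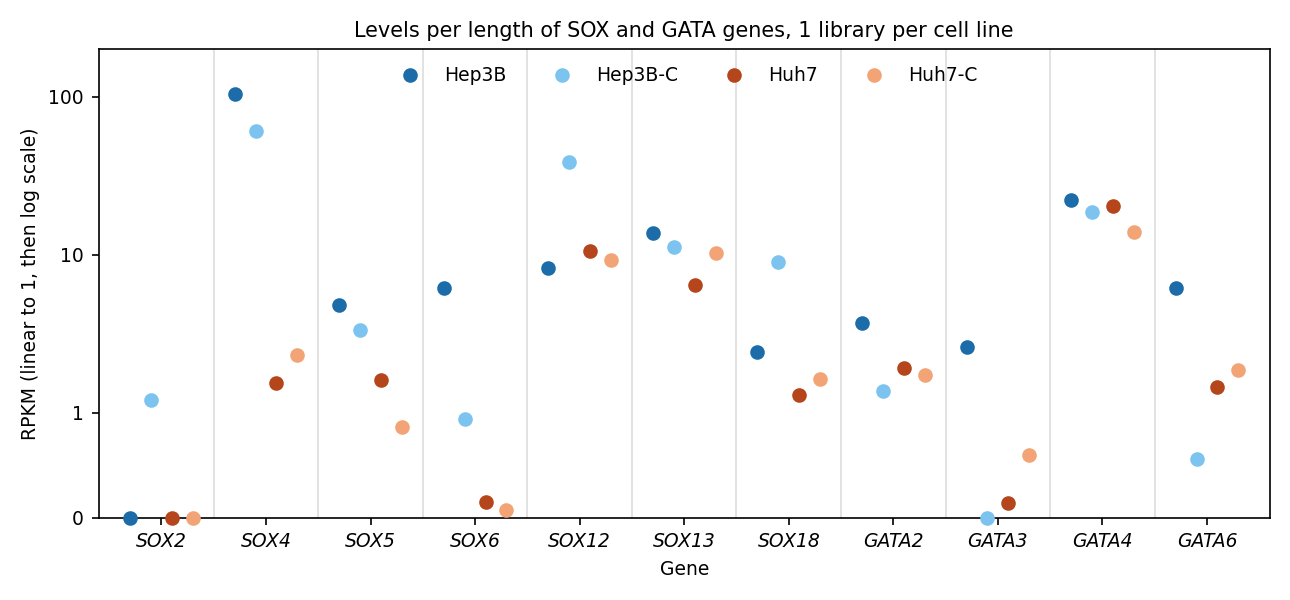
Levels per length (RPKM) of the SOX and GATA genes with 10 or more counts in at least 1 library, 1 point per library, on an axis that is linear to 1 and logarithmic above. SOX4 spans 1.54 RPKM in Huh7 to 104 in Hep3B, while GATA4 lies between 13.9 and 22.1 in all libraries.

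The GATA genes gave no call between lineages. GATA4, a pioneer factor of the liver bud, had 218, 296, 315 and 206 counts in Hep3B, Hep3B-C, Huh7 and Huh7-C. Per length it was the second member in Hep3B, Huh7 and Huh7-C and the third in Hep3B-C, at 22.1, 18.7, 20.4 and 13.9 RPKM in the order above. GATA6 had 62, 9, 23 and 28 counts, GATA2 37, 22, 30 and 26, and GATA3 23, 0, 2 and 8. GATA4, GATA6 and GATA2 had adjusted p-values of 0.943, 0.953 and 0.941 in edgeR, and GATA3 did not pass the filter. First in both Huh7 libraries was HOXC10, at 24.0 and 20.3 RPKM. Next after GATA4 came HOXA4 (12.1) and HOXD9 (10.9) in Huh7, and HOXC8 (12.8) and SOX13 (10.3) in Huh7-C. In Hep3B the order after GATA4 was SOX13 (13.8) and HOXA3 (8.44), and in Hep3B-C SOX12 (38.6) stood between SOX4 and GATA4.

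To see which members differed between stem-like and parental cells, Hep3B-C was set against Hep3B and Huh7-C against Huh7 by the Audic-Claverie test, which asks whether 2 Poisson counts share a rate. Calls needed an FDR of 0.01 or less over all genes of the pair and a change of 2-fold or more. Such a call compares 2 libraries, not 2 conditions. In the Hep3B pair, 3 members were called up (SOX2, SOX12 and SOX18) where 13.2% of all 15480 genes were, and 8 were called down where 30.4% were, among them HOXA2, HOXA3, SOX6, GATA2, GATA3 and GATA6. In the Huh7 pair, 2 members were called up (HOXA13 and HOXB9) where 4.19% of 14807 genes were, and 2 were called down (HOXA5 and HOXD13) where 4.15% were. Of 27 members listed in the Hep3B pair, 17 had 10 or more counts in at least 1 library, as had 26 of 46 in the Huh7 pair. No member was called in both pairs. The share of all genes called in both was not taken, so this 0 is a description and no result about the members. With an assumed biological coefficient of variation of 0.4, no member was called in either pair, and the calls over all genes were 62 up and 169 down in Hep3B-C and 13 up and 12 down in Huh7-C.

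The Hep3B pair had to be read against its scaling. The median log2 fold-change over all genes with 10 or more counts was -0.58 in Hep3B-C with total gene counts and 0.02 with TMM. In the Huh7 pair the medians were 0.06 and 0.01. With TMM the calls of all genes in Hep3B-C went from 2043 up and 4708 down to 3348 up and 2799 down, and those of members from 3 up and 8 down to 3 up and 6 down. With the total reads that the study states the members' calls were 3 up and 5 down, and those of all genes 3745 up and 2337 down. Fold-changes in the Hep3B pair were also positively related to GC content over 11338 genes (Spearman 0.63, across genes, which are not independent replicates) and negatively to length (-0.43). In the Huh7 pair these were -0.06 and 0.32. With both trends removed, 1 member was called up and 13 down in Hep3B-C, while the calls of all genes were 786 up and 3422 down. The part of GC content and length in these results was not tested beyond this.

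**Figure D4:**
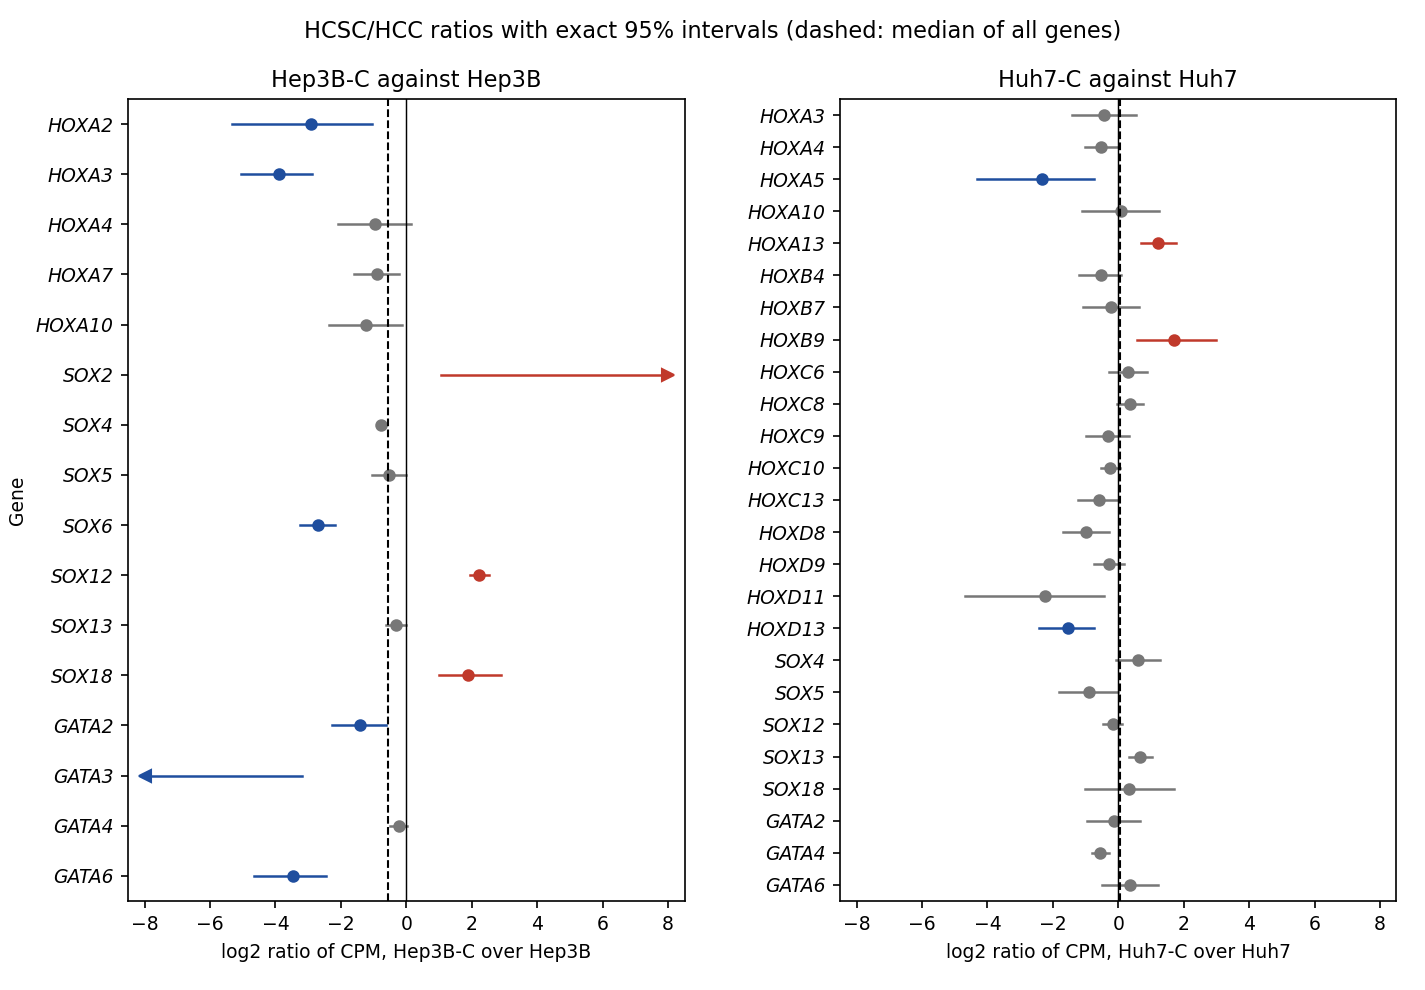
Ratios of CPM in each HCSC line over its parental line on the log2 scale, for the reported members with 10 or more counts in at least 1 library of the pair, with exact 95% intervals. Red and blue mark members called up and down, arrowheads a library at 0, and the dashed line the median of all genes (-0.58 in the Hep3B pair and 0.06 in the Huh7 pair). HOXA2 and HOXA3 lie far left of the dashed line in the Hep3B pair, and HOXA3 has an interval that spans it in the Huh7 pair.

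All 6 HOX genes with 10 or more counts in the Hep3B pair were lower in Hep3B-C, and they were below 0 under each scaling tried. Their median log2 fold-change was -1.97, against -0.58 over all genes, and -1.38 against 0.02 with TMM. HOXA2 and HOXA3, towards the 3' end, passed the test. HOXA3 went from 28.7 CPM in Hep3B to 1.94 in Hep3B-C, 14.8-fold lower (7.42 to 33.5, FDR 2.07e-24). HOXA2 went from 4.83 to 0.646 CPM, 7.48-fold lower (2.09 to 40.6, FDR 0.000514), and lost its call with the total reads that the study states, at a log2 fold-change of -1.96 against -2.73. The next genes of the cluster with 10 or more counts in this pair had smaller ratios and no call. HOXA5 (7 and 2 counts in Hep3B and Hep3B-C), HOXA6 (3 and 4) and HOXA9 (5 and 0) lie among them and were given no ratio. HOXA4 was 1.95-fold lower (0.903 to 4.26), HOXA7 1.88-fold (1.17 to 3.04) and HOXA10 2.34-fold (1.10 to 5.16). With TMM the log2 fold-changes of these 3 were -0.36, -0.31 and -0.62, against -3.22 and -2.14 for HOXA3 and HOXA2. With GC and length trends removed they were -2.07, -1.62 and -1.77, against -4.32 and -3.02, and HOXA4, HOXA7 and HOXA10 were then called down. Summed over genes grouped after their values had been seen, HOXA4 to HOXA10 were 2.17-fold lower in Hep3B-C with total gene counts (1.57 to 3.01). The difference was smaller with TMM, at 26.4 CPM in Hep3B and 17.0 in Hep3B-C.

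HOXA3 was not called in the Huh7 pair. It went from 5.29 CPM in Huh7 to 3.92 in Huh7-C (ratio 0.742, 0.374 to 1.44, FDR 0.559), and HOXA2 was not listed there. The HOXA3 ratio and its interval lay above those of the Hep3B pair, but with 1 library per line the difference between pairs was not tested against the spread between cultures. HOXD1, at 7 and 0 counts in Hep3B and Hep3B-C, was called down on these few reads alone, and at 7 and 4 counts it was not called in the Huh7 pair.

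In Huh7-C the sums of HOXA, HOXB and HOXC stayed close to those of Huh7, with ratios of 0.982 (0.833 to 1.16), 1.06 (0.790 to 1.42) and 0.947 (0.829 to 1.08). The HOXD sum was 1.76-fold lower (1.41 to 2.20). Of the 18 HOX genes with 10 or more counts, 13 were lower and 5 higher in Huh7-C. Their median log2 fold-change was -0.30, against 0.06 over all genes. HOXA13 was up-regulated from 9.70 to 22.6 CPM, 2.33-fold (1.62 to 3.41, FDR 1.2e-05). HOXB9 was up-regulated from 1.98 to 6.46 CPM, 3.26-fold (1.49 to 7.85, FDR 0.00621). HOXD13 was down-regulated from 11.5 to 3.92 CPM, 2.92-fold (1.66 to 5.39, FDR 0.000233). HOXA5, a gene of lung and foregut development, was down-regulated from 4.63 to 0.923 CPM, 5.01-fold (1.69 to 20.1, FDR 0.00333), a call that was lost with the length trend removed, at a log2 fold-change of -1.97 against -2.19. HOXA13 and HOXD13, both of group 13, therefore had opposite calls in the same pair of libraries.

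The values of HOXD8, HOXD9 and HOXD11 were also lower in Huh7-C than in Huh7, without passing the test. HOXD8 was 1.98-fold lower (1.23 to 3.26, FDR 0.0103), HOXD11 4.78-fold lower (1.35 to 25.7, FDR 0.0199) and HOXD9 1.22-fold lower (0.886 to 1.68, FDR 0.387). With TMM, HOXD8 was called down. HOXC10 had a ratio of 0.845 (0.688 to 1.04), HOXC8 of 1.28 (0.979 to 1.67) and HOXC6 of 1.22 (0.816 to 1.84), none of them called. HOXC9 (0.802, 0.505 to 1.26), HOXC13 (0.663, 0.430 to 1.01), HOXB4 (0.685, 0.437 to 1.06) and HOXB7 (0.860, 0.473 to 1.55) were not called. Nor were HOXA4 (0.694, 0.497 to 0.965) and HOXA10 (1.05, 0.463 to 2.37).

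SOX genes split in Hep3B-C. SOX12 was up-regulated from 38.0 to 179 CPM, 4.70-fold (3.85 to 5.79, FDR 2.07e-73), and its log2 fold-change of 2.23 stayed called with TMM (2.82) and with GC and length trends removed (1.37). Its ratio in the Huh7 pair was 0.885 (0.724 to 1.08). SOX4, of the same SoxC group, was 1.70-fold lower in Hep3B-C (1.58 to 1.84), below the threshold, and its log2 fold-change of -0.77 was -0.17 with TMM. In Huh7-C the SOX4 ratio was 1.51 (0.955 to 2.41). SOX18 was up-regulated from 4.14 to 15.3 CPM, 3.69-fold (1.99 to 7.48, FDR 7.31e-06). It had the highest GC content of the named members, 69.4%, and with GC and length trends removed its log2 fold-change of 1.84 turned to -0.40. The endothelial markers summed to 3.11 CPM in Hep3B and 2.80 in Hep3B-C, with VWF at 0 in both and CDH5 not listed. The SOX18 ratio of the Huh7 pair was 1.26 (0.497 to 3.25).

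SOX2, a factor of pluripotent and neural stem cells, went from 0 counts in Hep3B to 14 in Hep3B-C (3.02 CPM). This was at least 2.91-fold higher relative to 3 counts in Hep3B (FDR 0.00415), and the call was lost with GC and length trends removed, at a fitted log2 fold-change of 3.94 against 4.18. SOX2 lies within an intron of the noncoding gene SOX2-OT, whose reads cannot be told from those of SOX2 by position where they are not spliced. SOX6, the one member of the SoxD group that was called, went from 54.9 to 8.40 CPM, 6.53-fold lower (4.58 to 9.53, FDR 1.6e-32). It is long (8978 bases) and poor in GC (41.9%), and its log2 fold-change of -2.69 was -1.08 with GC and length trends removed. SOX5 and SOX13 were near the median of all genes in Hep3B-C, with log2 fold-changes of -0.53 and -0.31 that turned to 0.07 and 0.29 with TMM. In Huh7-C, the SOX5 ratio was 0.539 (0.282 to 0.997, FDR 0.0944), and SOX13 was 1.59-fold higher (1.26 to 2.02, FDR 0.000426), below the 2-fold threshold.

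Of the GATA genes, 3 were called down in Hep3B-C and none was called in Huh7-C. GATA6, which acts in extraembryonic and definitive endoderm, went from 21.4 to 1.94 CPM, 11.0-fold lower (5.46 to 25.3, FDR 7.27e-17). GATA3, known for T cells and breast epithelium, went from 23 counts to 0, at least 12.3-fold lower relative to 3 counts in Hep3B-C (FDR 6.86e-10). GATA2 went from 12.8 to 4.74 CPM, 2.70-fold lower (1.55 to 4.80, FDR 0.00034), and lost its call with TMM, at a log2 fold-change of -0.82. GATA4 was 1.18-fold lower (0.986 to 1.41, FDR 0.0933), and its log2 fold-change of -0.24 was 0.36 with TMM and -1.25, a call, with GC and length trends removed. Of the blood cell markers, CD14 had 4 counts in Hep3B and 6 in Hep3B-C, while PTPRC, CD3E and HBB were not listed. The part of blood cells in these values was not tested. In the Huh7 pair the ratios were 1.27 for GATA6 (0.708 to 2.32), 0.907 for GATA2 (0.515 to 1.59) and 0.685 for GATA4 (0.572 to 0.819, FDR 0.000113), the last below the 2-fold threshold.

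**Figure D5:**
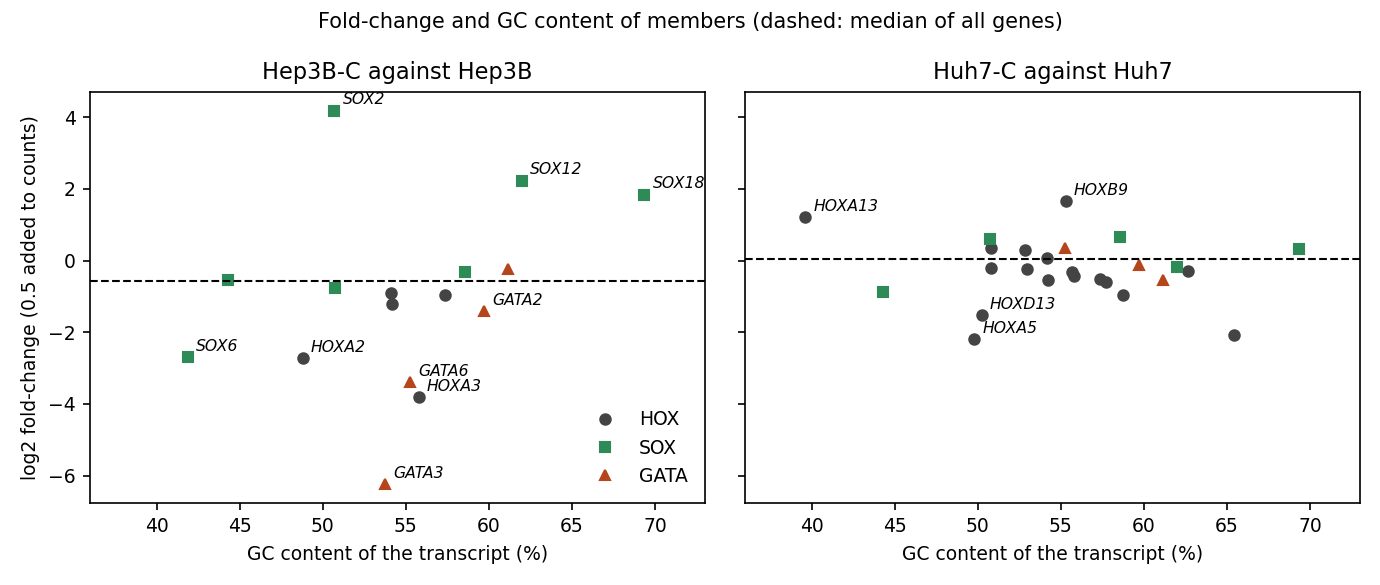
Log2 fold-change (0.5 added to each count) of the reported members with 10 or more counts in the pair against the GC content of the transcript in percent, with the median of all genes dashed and called members named. In the Hep3B pair the HOXA and GATA calls shown lie between 48.8% and 59.7% GC, and SOX6 (41.9%) and SOX18 (69.4%) lie at the ends of the axis.

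A last comparison set both HCSC lines against both HCC lines in edgeR, with the lineage as a block. Of the 26 members tested, 0 were called in either direction at an adjusted p of at most 0.05, where 0.0342% of 11691 genes were called up and 0.0428% down. At an unadjusted edgeR p under 0.05 the count was also 0 members, with a lowest p of 0.0542, against 372 of the 11691 genes. DESeq2 called 0 members and 15 of all genes. With shares this low, 0 calls among 26 members do not set the members apart from all genes. Among the 12 members with 10 or more counts in both pairs, 6 were lower in both HCSC lines, among them HOXA3, HOXA4, SOX5, GATA2 and GATA4, although SOX5 and GATA4 turned in the Hep3B pair with TMM. SOX18 was higher in both, SOX12 in Hep3B-C only, and HOXA10, SOX4, SOX13 and GATA6 in Huh7-C only. In the Hep3B pair SOX13 turned to 0.29 with TMM, which made it higher in both, and SOX18 to -0.40 with GC and length trends removed. How many of all genes fell in both HCSC lines was not counted. With total gene counts, the median gene of the Hep3B pair itself stood at a log2 fold-change of -0.58. The 6 of 12 members are therefore a description and do not show a shared fall of the members.

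HOX proteins bind DNA together with the PBX, MEIS and PKNOX cofactors. Of 9 such genes, 8 were in the files. In Hep3B-C, 0 of 6 were called up and 2 down, where 13.2% and 30.4% of all genes were. The median log2 fold-change of the list was -0.90 over 6 genes, against -0.58 over all genes. PKNOX1 went from 65 counts to 24 (log2 fold-change -2.10). In Huh7-C none was called (median 0.10 over 7 genes), and PKNOX1 had 40 and 41 counts in Huh7 and Huh7-C. Between lineages, and named here after their values had been seen, MEIS3 had 0 counts in Hep3B and Hep3B-C against 116 in Huh7 and 60 in Huh7-C. MEIS2 had 432 and 383 counts in Hep3B and Hep3B-C against 16 and 18. Of 9 ParaHox and HOX-linked genes, 4 were in the files. None was called in Hep3B-C (median -0.80 over 2 genes). In Huh7-C (median 1.65 over 3 genes) 1 of 4 was called up, where 4.19% of all genes were. It was PDX1, a pancreas factor, which went from 9 to 50 counts. Of 14 noncoding RNAs of the HOX clusters on the list, HOXA11-AS1 alone was in the files, at 2 counts in each Huh7 library.

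Retinoic acid, made by ALDH1A enzymes and removed by CYP26 enzymes, acts through RAR and RXR receptors and is known to switch on the 3' HOX genes. Of 18 genes of this list, 15 were in the files. In Hep3B-C, 0 of 13 were called up and 1 down, where 13.2% and 30.4% of all genes were. The median log2 fold-change was 0.32 over 10 genes, against -0.58 over all genes. In Huh7-C 1 of 14 was called up and 3 down, where 4.19% and 4.15% of all genes were. The median there was -0.46 over 10 genes, against 0.06 over all genes. RARB, itself a target of the receptors, was called down in both, from 17 counts in Hep3B to 1 in Hep3B-C and from 13 in Huh7 to 0 in Huh7-C. In Huh7-C, CYP26A1 went from 24 counts to 0 and DHRS3, a retinaldehyde reductase, from 548 to 135. ALDH1A1 went from 1474 to 3904 counts there, a log2 fold-change of 1.47. Of 7 GATA cofactors on the list, 5 were in the files, and ZFPM1, a zinc finger partner of GATA factors, was called up in Hep3B-C, from 26 to 108 counts (median of the list 0.64 over 2 genes). None was called in Huh7-C (median -0.04 over 2 genes).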

How the data were processed

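RNA of 4 libraries, 1 per cell line, was read on the Illumina Genome Analyzer II platform. Reads were mapped by the authors with NextGENe (version not given in the sources used here) to NCBI Build 36.1 and counted per gene. Whole, unnormalized read counts were deposited with Entrez ID, symbol and gene length. Strand and the handling of multi-mapped reads are not given in the sources used here, so paralogs and overlapping genes are uncertain. Genes listed by an ID without a symbol (21) held at most 0.0535% of a library's counts and were kept in totals. A gene missing from the files of a pair was taken as 0 counts there.

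Levels were scaled to total gene counts. Each pair was tested with the Audic-Claverie test over all genes (tail doubled, 0.5 added to counts for fold-changes, Benjamini-Hochberg adjustment). edgeR 4.0.16 (quasi-likelihood, TMM, filterByExpr) in R 4.3.3 was fitted over 4 libraries with lineage and state as terms, and its adjusted p-values are those quoted. The lineage pairs the samples because each HCSC line was grown from the HCC line of that name, and deviations of paired samples correlated (0.53 across genes). DESeq2 1.42.0, TMM, total reads stated by the study, other pseudocounts and filters, GC and length trends (GENCODE release 29 transcripts) and an assumed spread were alternatives. Pair and edgeR scripts were tested on simulated data. Python 3.11.15 was used.

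Every member with at least 10 counts in at least 1 library is named, apart from what is not reported here, and at most 4 genes of each related list, those called in both pairs first and then those with the largest change. The members and the lists were chosen with earlier results of these data known. SOX9 was left out by the rule.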

Additional observations from a re-analysis of the deposited data

Results flagged for a closer look

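SOX13 differed in direction between the pairs. In the Hep3B pair it had 163 counts in Hep3B and 211 in Hep3B-C, or 56.3 and 45.5 CPM, a ratio of 0.808 (0.655 to 0.997). In the Huh7 pair it had 119 counts in Huh7 and 181 in Huh7-C, or 26.2 and 41.8 CPM, a ratio of 1.59 (1.26 to 2.02). The log2 fold-change in the Hep3B pair minus that in the Huh7 pair was -0.98. With 1 library per line this difference was not tested. With TMM the log2 fold-change of the Hep3B pair was 0.29 and that of the Huh7 pair 0.63, so the opposite directions rest on the scaling of the Hep3B pair.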

How the results depend on the processing

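In Hep3B-C, the 3 members called up were 1 with GC and length trends removed and 0 with a BCV of 0.4. The 8 called down were 5 with the total reads stated by the study, 13 with GC and length trends removed and 0 with a BCV of 0.4. In Huh7-C, the 2 called up were 0 with that BCV, and the 2 called down were 1 with the length trend or with GC and length trends removed, and 0 with that BCV. Log2 fold-changes that changed sign in Hep3B-C were those of GATA4 (0.36 with TMM and 0.53 with the total reads stated by the study), SOX5 (0.066 and 0.24 with these, and 0.29 with GC and length trends removed), SOX13 (0.29 and 0.46, and 0.039 with the length trend removed) and SOX18 (-0.40 with GC and length trends removed). In Huh7-C HOXB7 turned to 0.036 with GC and length trends removed and to 0.0037 with the length trend removed. SOX18 alone of these was called before it turned. The members' summed level in Hep3B and Hep3B-C, 884 and 654 CPM, was 733 and 758 CPM with TMM, so its order between these libraries turned. Single log2 fold-changes were also compared under TMM, the total reads stated by the study, a pseudocount of 5, and the length trend or both trends removed. Over these settings, 190 kept direction and call, 8 gained a call, 6 lost one and 11 changed sign. The BCV of 0.4 was not part of this tally, and under it every member call was lost. Why the values moved was not tested.

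Without the replicate block, 0 members were called between HCSC and HCC in either direction, as with it, and 11 and 3 members were called higher in the Huh7 and the Hep3B lineage, as with it. With each library left out in turn, a fit that has no block and in which a lone library is assumed to vary like the others, members higher in the Huh7 lineage numbered 5 to 13 and those higher in the Hep3B lineage 0 to 5, and none was called between HCSC and HCC. No library could be left out of a pair, which holds 1 per arm.

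Depth limits the low genes. A gene of 10 counts has a wide interval, and the 19 members under 10 counts in every library were given no ratio. A missing call does not show that a gene stayed the same.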

Other observations

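Factors of endoderm and liver specification were followed beside the GATA genes. Of 14 on the list, 13 were in the files. In Hep3B-C, 2 of 13 were called up, among them FOXA3, and 7 down, where 13.2% and 30.4% of all genes were. The median log2 fold-change of the list was -1.71 over 11 genes, against -0.58 over all genes. ONECUT1, a factor of liver and bile duct cells, went from 269 counts in Hep3B to 22 in Hep3B-C (log2 fold-change -4.26). TBX3 went from 117 to 34 counts (-2.45), PROX1, needed for the outgrowth of the liver bud, from 607 to 249 (-1.96) and ONECUT2 from 1280 to 549 (-1.90). In Huh7-C none was called, with a median of -0.27 over 11 genes. FOXA3 had 103 counts in Hep3B and 601 in Hep3B-C.

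Of 9 pluripotency factors on the list, 8 were in the files. In Hep3B-C, 0 of 8 were called up and 2 down, where 13.2% and 30.4% of all genes were. The median log2 fold-change of the list was -1.64 over 4 genes, against -0.58 over all genes. SALL4, a fetal liver and stem cell factor, went from 78 counts in Hep3B to 4 in Hep3B-C (log2 fold-change -4.81), and LIN28B, which blocks let-7 microRNAs, from 383 to 239 (-1.36). In Huh7-C none was called (median 0.11 over 4 genes), where SALL4 had 111 and 76 counts and LIN28B 362 and 563. POU5F1 had 5, 0, 9 and 3 counts in Hep3B, Hep3B-C, Huh7 and Huh7-C, and NANOG 10, 6, 2 and 6.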
